A study of Arabidopsis thaliana with 18 samples.

Results

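The genes described here are 11 transcription factors of Arabidopsis thaliana that the array's annotation names by a numbered family symbol. They are 5 basic helix-loop-helix (bHLH) genes, 4 WRKY genes, 1 NAC gene and 1 TCP gene. The bHLH genes are bHLH34 (AT3G23210), BHLH101 (AT5G04150), bHLH104 (AT4G14410), bHLH115 (AT1G51070) and bHLH121 (AT3G19860). The WRKY genes are WRKY20 (AT4G26640), WRKY22 (AT4G01250), WRKY42 (AT4G04450) and WRKY47 (AT4G01720), and the others are NAC014 (AT1G33060) and TCP15 (AT1G69690). A probe set was taken where it was annotated to 1 gene and the symbol of that gene began with the name of 1 of 13 families and went on with a number. No measured value entered this rule. It matched 13 symbols, of which 2 further WRKY genes were left out. The families with no symbol of this form were MYB, ERF, HSFA, HSFB, SPL, ARF, GATA, HB and NF-Y.

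These 11 genes are 11 of 22746 tested probe sets. Of those probe sets 13513 had 1 gene, and 11934 of these carried only a locus number as their name. The 11 genes are therefore a small part of the genes with symbols of this form. The supplied RefSeq table holds 468 such genes over all 13 families searched, among them 79 NAC, 67 WRKY, 17 TCP and 13 bHLH symbols. The set has 5 bHLH genes, so the part covered differs by family. Each of the 11 had 1 probe set, and none had a second one.

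The measurements came from 18 Affymetrix arrays, each with RNA from the aerial region of 1 plant that was 18 days old, in the Col-0 background. The 6 groups of 3 plants were tt4, sng1 and wild-type (WT) plants given 24 h of ultraviolet light (UV), and tt4, sng1 and WT plants kept in continuous light (CO), on day 18 after 17 days of long days. By the labels, all plants were grown at 22 °C with 1% sucrose and harvested 6 h into the bright phase. The tt4 mutant is known for lacking chalcone synthase, which begins flavonoid synthesis, and sng1 for lacking the enzyme that makes sinapoylmalate, so each lacks a different class of UV-absorbing compound. The CO plants had 8 h of additional light, which is not stated for the UV plants, so ultraviolet and the difference in other light cannot be told apart.

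Tissue was checked by markers, with shoot genes expected to be high and root genes expected at or near the floor. Of 14 shoot markers listed 4 were measured, and all 4 fell in the mean UV effect over genotypes, with log2 changes of -1.12 for SBPASE and -0.97 for PRK (both of the Calvin cycle), -0.64 for PSAN (a photosystem I subunit) and -0.17 for RCA (Rubisco activase). RCA and PSAN had signals between 14180 and 16300 and between 5820 and 8861 under UV, against 16020 to 18600 and 9694 to 12940 in CO. Of 11 root markers listed 2 were measured. The root hair gene EXPA7 lay between 16.0 and 48.33 under UV and between 16.0 and 43.17 in CO. PYK10, a beta-glucosidase abundant in roots and hypocotyls, had signals of 832.2 to 4062 under UV, against 3470 to 6124 in CO. PYK10 was thus far above the floor, against the expectation, and these markers do not settle whether root tissue was absent. The log2 ratio of 3' to 5' control probe sets also moved with the light: for actin it averaged 3.04 ± 0.44 under UV and 2.25 ± 0.26 in CO (SD over 9 plants each), and for GAPDH 0.40 ± 0.25 under UV and 0.56 ± 0.10 in CO. In the alternative control probe sets of both genes it averaged 1.03 ± 0.31 and 0.08 ± 0.08 under UV, against 0.82 ± 0.13 and -0.005 ± 0.05 in CO. The part of these ratios, of the shoot markers and of PYK10 in the results below was not tested. Signals are from bulk tissue, in which fewer cells of a type and less RNA per cell cannot be told apart.

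Members of a transcription factor family share a DNA-binding domain and often act as pairs, so that 1 family serves unrelated programmes. WRKY factors bind W-box motifs and are known for immunity and leaf senescence. TCP factors set cell proliferation in young organs, and NAC factors run from organ boundaries to senescence. The 5 bHLH genes belong to the iron deficiency cascade: bHLH34, bHLH104 and bHLH115 are related activators of subgroup IVc, bHLH121 is a partner of that subgroup, and BHLH101 is a subgroup Ib factor that acts downstream of them.

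Under UV the genes of this set that passed the test were all lower, and none was higher, within any 1 genotype. WRKY22 fell in tt4, TCP15 fell in sng1, bHLH121 fell in both mutants, and bHLH115 fell in sng1 and in WT. A gene is called here when its adjusted p is under 0.05 in limma, with Benjamini-Hochberg adjustment over all 22746 probe sets. In tt4, 2 of the 11 genes were called lower, in sng1 3, and in WT 1. At an unadjusted p under 0.05 the numbers were 5 in tt4, 4 in sng1 and 3 in WT. Of all 22746 tested probe sets 8244 had such a p in tt4, 7694 in sng1 and 7947 in WT. Over all tested probe sets 26.7% were called in tt4 (12.7% higher and 14.1% lower), 23.5% in sng1 (11.9% higher and 11.6% lower) and 24.4% in WT (12.5% higher and 11.9% lower). Counts of 1 to 3 among 11 genes are read as results on those genes and not as a property of the set. The median log2 change of the 11 genes was -0.12 in tt4, -0.14 in sng1 and -0.002 in WT, and that of all tested probe sets was 0.

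By gene, 2 of the 11 were called in 2 genotypes, 2 in a single genotype, 7 in none and 0 in all 3. Of all tested probe sets 64.4% were called in none of the 3 genotypes, while 7.77% were called lower and 7.74% higher in all 3. In each of the 6 called pairs of gene and genotype all 3 UV plants lay below all 3 CO plants. Calls and separation rest on the same values, so the separation is no further support. Of all 33 pairs 13 had separate groups, so pairs that were not called could also be separate. The share of all tested probe sets with such a separation under UV is not given here.

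**Figure D1:**
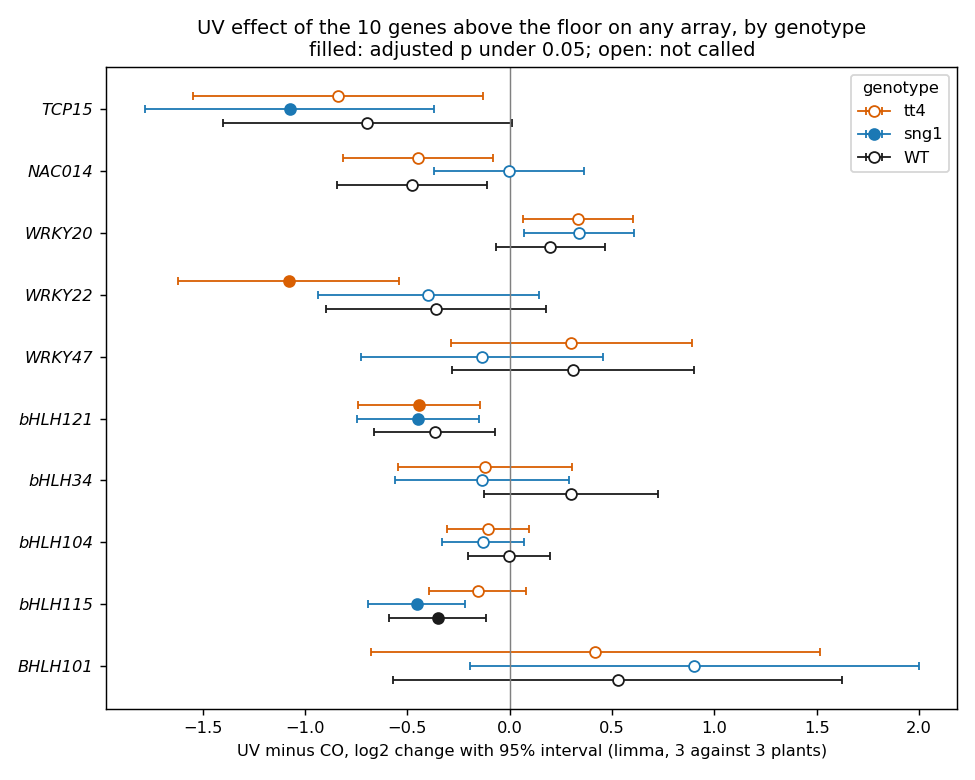
UV effects by gene and genotype, as the log2 change of UV minus CO on the horizontal axis with limma's 95% interval, for the 10 genes with a signal above the floor on any array; filled points were called. The 6 filled points all lie left of 0, and TCP15, WRKY22, bHLH121 and bHLH115 are the genes that hold them.

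The mean of the 3 UV effects was also tested, with 9 UV against 9 CO plants, a comparison chosen after the single genotypes had been seen. In this mean 6 of the 11 genes were called: TCP15, WRKY22, bHLH121, bHLH115 and NAC014 fell, and WRKY20 rose. Of all tested probe sets 42.8% were called in it, 22% lower and 20.9% higher, against 54.5% of this set. These 6 calls held in each of the alternative settings run for the mean effect, those that left out 1 array included.

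TCP15, a class I TCP factor that acts with TCP14 in cell proliferation, had the lowest mean effect of the set, -0.87 ± 0.19 on the log2 scale (SE, adjusted p = 0.00197). Its signals in tt4 were 237.5, 231.0 and 146.9 under UV, against 407.2, 554.9 and 204.1 in CO. In sng1 they were 269.4, 173.6 and 222.4 under UV, against 389.5, 435.4 and 574.5 in CO. In WT they were 292.9, 242.8 and 240.7 under UV, against 369.2, 545.5 and 361.0 in CO. All UV plants were below all CO plants in sng1 and in WT, whereas in tt4 the third CO plant lay below 2 of the UV plants. The log2 change was -1.08 ± 0.33 (SE) in sng1, which is 0.474 of the CO level (adjusted p = 0.0299). It was -0.84 ± 0.33 in tt4 (adjusted p = 0.0779) and -0.70 ± 0.33 in WT (adjusted p = 0.151), which were not called.

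The sng1 call of TCP15 was lost in 4 of the 6 fits that left out 1 array, while the change stayed between -1.23 and -0.91 in all 6. The largest adjusted p were 0.113 without sng1_UV 2 (-0.91) and 0.11 without sng1_CO 3 (-0.92), and without sng1_UV 3 or sng1_CO 2 the changes were -1.09 and -1.12 (adjusted p = 0.0688 and 0.066). The tt4 value turned on 1 plant in the other direction, since it was -1.25 without tt4_CO 3 (adjusted p = 0.00588). Leaving out the 2 tt4 arrays with the lowest array weights, tt4_UV 3 and tt4_CO 2, gave -0.30 for TCP15 in tt4 (adjusted p = 0.617). The order of the mean log2 signals from the lowest up was tt4_UV, sng1_UV, WT_UV, tt4_CO, WT_CO and sng1_CO, so the 3 UV groups lay below the 3 CO groups. Neither mutant was shown to differ from WT within a light treatment, and tt4 was not compared with sng1. Over the 6 group means the genes of the set most like TCP15 were bHLH115 (Pearson r = 0.892), bHLH121 (r = 0.858) and WRKY22 (r = 0.849), and what these points share is the split by light. Of the 39 cell cycle genes listed beside TCP15, 1 was measured by name: SIM, an inhibitor of cyclin-dependent kinases. It was not called in any single genotype, with log2 changes of -0.50 in tt4, -0.39 in sng1 and -0.39 in WT (adjusted p = 0.0508, 0.136 and 0.132). The mean effect of SIM over genotypes was -0.43 ± 0.10 and was called lower (adjusted p = 0.00364).

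WRKY22, a factor of the kinase cascade that answers bacterial flagellin and of dark-induced senescence, fell in tt4. Its tt4 signals were 55.88, 71.1 and 59.15 under UV, against 92.56, 155.0 and 154.6 in CO. The sng1 signals were 103.6, 89.88 and 79.03 under UV, against 90.68, 133.4 and 139.3 in CO. Those of WT were 86.91, 92.35 and 74.41 under UV, against 81.79, 150.1 and 103.0 in CO. The groups were separate in tt4 and overlapped in sng1 and in WT, where 1 CO plant of each had a signal in the range of the UV plants. The log2 change was -1.08 ± 0.25 in tt4, or 0.473 of the CO level (adjusted p = 0.00613), against -0.40 ± 0.25 in sng1 (adjusted p = 0.300) and -0.36 ± 0.25 in WT (adjusted p = 0.349).

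The WRKY22 call in tt4 held when any 1 of the 6 tt4 arrays was left out (adjusted p between 0.00243 and 0.0299). It was lost in a fit of the tt4 arrays alone (adjusted p = 0.0597) and without tt4_UV 3 and tt4_CO 2 together (-0.92, adjusted p = 0.0673). The mean effect over genotypes was -0.61 ± 0.14 (adjusted p = 0.00342). The difference between the tt4 and the WT effect was -0.72 ± 0.35, with a 95% interval of -1.48 to 0.04 (unadjusted p = 0.0627, adjusted p = 1), so the effect was not shown to differ between these genotypes. All 3 tt4_UV plants lay below all 3 WT_UV plants, with a log2 difference of -0.45 ± 0.25 (adjusted p = 0.982). Among the 24 defence genes listed beside the WRKY factors only SAG101, a senescence-associated immune regulator, was measured by name, and it rose by 1.36 in tt4, 0.89 in sng1 and 1.26 in WT, with a call in sng1 that was lost in 4 of the 6 fits that left out 1 array (adjusted p up to 0.0938) and a call in tt4 that was lost in a fit of the tt4 arrays alone (adjusted p = 0.0718).

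The other WRKY genes were not called in any genotype. WRKY20, which carries a pair of WRKY domains, had signals of 352.7 to 525.4 with a median of 434.2 in the 9 UV plants, against 266.2 to 414.8 with a median of 340.3 in the 9 CO plants. Its 3 UV plants lay above its 3 CO plants in tt4 and in sng1, and the groups overlapped in WT. The log2 changes were 0.33 in tt4, 0.34 in sng1 and 0.20 in WT, each ± 0.12 (adjusted p = 0.0642, 0.0666 and 0.291). Their mean of 0.29 ± 0.07 was called (adjusted p = 0.0047), so that WRKY20 was higher and WRKY22 lower under UV in these plants. The signals of WRKY47 ran from 159.3 to 346.9 under UV and from 136.7 to 289.9 in CO, and overlapped in all 3 genotypes. Its mean effect was 0.16 ± 0.16, with a 95% interval of -0.18 to 0.50. WRKY42, a repressor in phosphate supply that acts with a relative, was at the floor of 16 on all 18 arrays and gives no comparison.

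NAC014 was called lower under UV in the mean effect and not in any single genotype. Its signals ran from 149.0 to 235.6 with a median of 204.8 in the UV plants, against 195.3 to 302.2 with a median of 241.4 in the CO plants. All UV plants lay below all CO plants in tt4 and in WT, and in sng1 the groups overlapped. The log2 changes were -0.45 in tt4, -0.00 in sng1 and -0.48 in WT, each ± 0.17, and none was called (adjusted p = 0.0694, 1 and 0.0564). The mean effect of -0.31 ± 0.10 was called (adjusted p = 0.0199). Leaving out WT_UV 2 gave a call in WT (-0.61, adjusted p = 0.0344), and leaving out tt4_CO 3 gave a call in tt4 (-0.61, adjusted p = 0.0186). With dim probe sets left out NAC014 was called in WT (adjusted p = 0.0376) and in tt4 (adjusted p = 0.0472). Values as deposited also gave a call in WT (-0.52, adjusted p = 0.0447). The sng1 effect exceeded that of WT by 0.48 ± 0.24 (unadjusted p = 0.0688, adjusted p = 1), so a difference between the genotypes was not shown.

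**Figure D2:**
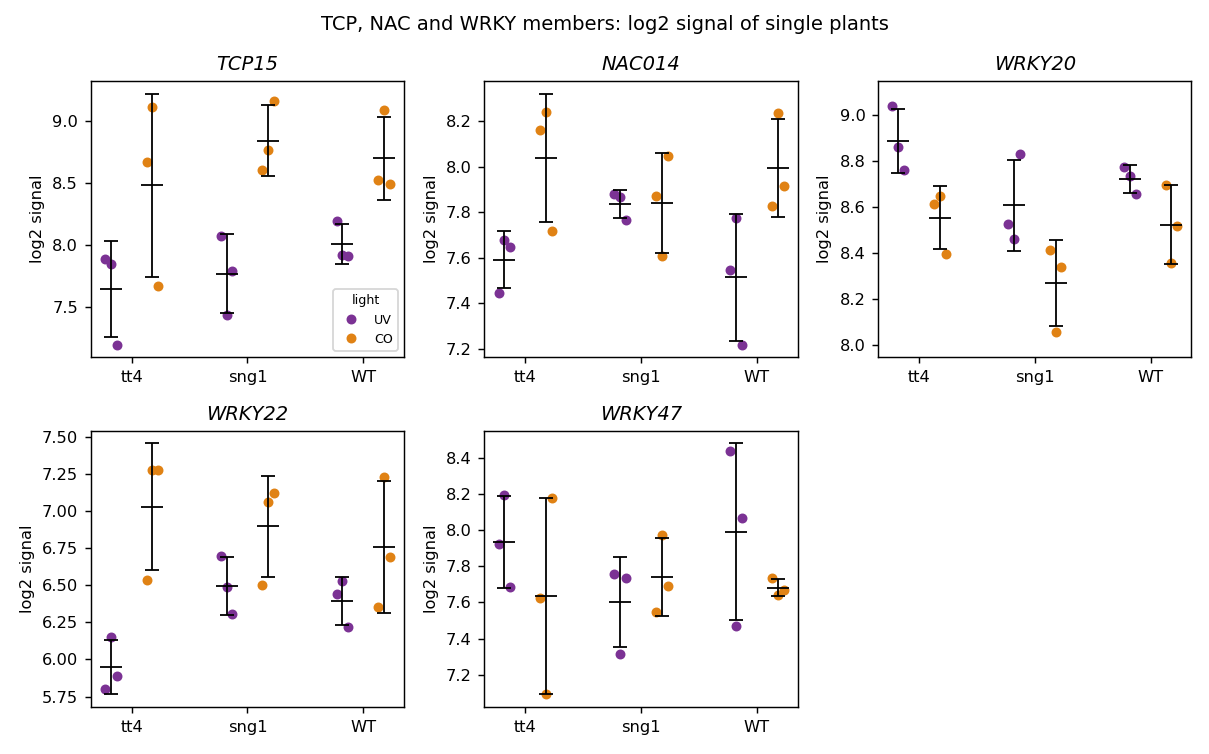
Log2 signals of TCP15, NAC014 and 3 WRKY genes on the vertical axes, with 1 point per plant, UV left of CO in each genotype, and bars for the mean and SD of 3 plants. TCP15 and WRKY22 have their lowest points in tt4_UV, while WRKY20 lies higher under UV in tt4 and sng1.

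Of the 5 bHLH genes, bHLH121 and bHLH115 fell under UV and the other 3 were not called in any genotype. For bHLH121, the iron deficiency factor that pairs with subgroup IVc, the tt4 signals were 841.8, 777.6 and 617.0 under UV, against 982.0, 1165 and 888.3 in CO. In sng1 they were 720.0, 640.3 and 657.3 under UV, against 945.5, 880.5 and 928.5 in CO. In WT they were 859.7, 619.2 and 676.3 under UV, against 880.9, 1009 and 869.5 in CO. All 9 UV plants lay below all 9 CO plants, whatever their genotype. The margin was narrow, with 859.7 as the highest UV signal and 869.5 as the lowest CO signal. How many of all tested probe sets separate in this way was not counted. The log2 change was -0.44 ± 0.14 in tt4 (adjusted p = 0.0295) and -0.45 ± 0.14 in sng1 (adjusted p = 0.0306), and in WT it was -0.37 ± 0.14 (adjusted p = 0.0696). The mean effect was -0.42 ± 0.08, with an adjusted p of 0.000705, the smallest of the set.

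The calls of bHLH121 within single genotypes were close to the threshold. In tt4 the call was lost without tt4_UV 3 (-0.31, adjusted p = 0.122), tt4_CO 1 (adjusted p = 0.0572) or tt4_CO 2 (-0.34, adjusted p = 0.125), and without both tt4_UV 3 and tt4_CO 2 the change was -0.21 (adjusted p = 0.33). In sng1 it was lost in 5 of the 6 fits that left out 1 array (adjusted p up to 0.0954) and with arrays centred on their medians (-0.35, adjusted p = 0.0608). In WT a call was gained without WT_UV 1 (-0.50, adjusted p = 0.0171).

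For bHLH115, an activator of subgroup IVc, the tt4 signals were 598.3, 463.4 and 484.8 under UV, against 601.8, 557.1 and 555.1 in CO. In sng1 they were 515.2, 422.8 and 436.6 under UV, against 720.1, 545.4 and 623.1 in CO. In WT they were 479.8, 486.7 and 445.8 under UV, against 610.7, 605.6 and 584.5 in CO. The groups were separate in sng1 and in WT, and in tt4 the first UV plant had a signal in the range of the CO plants. The log2 change was -0.45 ± 0.11 in sng1 (adjusted p = 0.00897) and -0.35 ± 0.11 in WT (adjusted p = 0.0329), and in tt4 it was -0.16 ± 0.11 (adjusted p = 0.343). The mean effect was -0.32 ± 0.06 (adjusted p = 0.000971).

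The sng1 call of bHLH115 held when any 1 of its 6 arrays was left out (adjusted p up to 0.042) and was lost in a fit of the sng1 arrays alone (adjusted p = 0.077). The WT call was lost in all 6 fits that left out 1 array (adjusted p between 0.0546 and 0.105). It was also lost with arrays centred on their medians, where the change was -0.24 (adjusted p = 0.144). The UV effect of tt4 differed from that of WT by 0.19 ± 0.15 and that of sng1 by -0.10 ± 0.15 (adjusted p = 1 each).

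The related subgroup IVc genes bHLH34 and bHLH104 were not called in any genotype or in the mean effect. The bHLH34 signals ran from 117.1 to 185.8 with a median of 148.3 under UV, against 102.4 to 181.0 with a median of 151.5 in CO. Its mean UV effect was 0.01 ± 0.11, with a 95% interval of -0.23 to 0.26. The bHLH104 signals ran from 817.7 to 1039 under UV, against 860.5 to 1155 in CO, with medians of 969.9 and 994.1. Its mean effect was -0.08 ± 0.05, with a 95% interval of -0.20 to 0.04, and its UV plants lay below its CO plants in sng1 but overlapped with them in tt4 and in WT. A call of bHLH104 appeared in sng1 in a fit of the sng1 arrays alone (-0.13, adjusted p = 0.0374) and in the mean effect without WT_CO 3 (-0.12, adjusted p = 0.0441). Effects of the size measured for bHLH121 lie outside both intervals, but whether the genes differ from each other was not tested.

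BHLH101, the downstream iron deficiency factor of subgroup Ib, was near the limit of the array. It was at the floor on 3 of 9 UV arrays and 7 of 9 CO arrays. Its tt4 signals above the floor were 31.61 and 37.84 under UV, against 31.37 in CO. In sng1 they were 81.21 and 27.59 under UV and 21.5 in CO, and in WT they were 25.22 and 30.36 under UV with no CO plant above the floor. In each genotype 1 UV plant was at the floor, so the groups were not separate. The log2 change was 0.42 in tt4, 0.90 in sng1 and 0.53 in WT, each ± 0.51 (adjusted p = 0.635, 0.244 and 0.534), and the mean effect was 0.62 ± 0.29 (adjusted p = 0.114). Since values at the floor have no order, these changes depend on the floor.

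**Figure D3:**
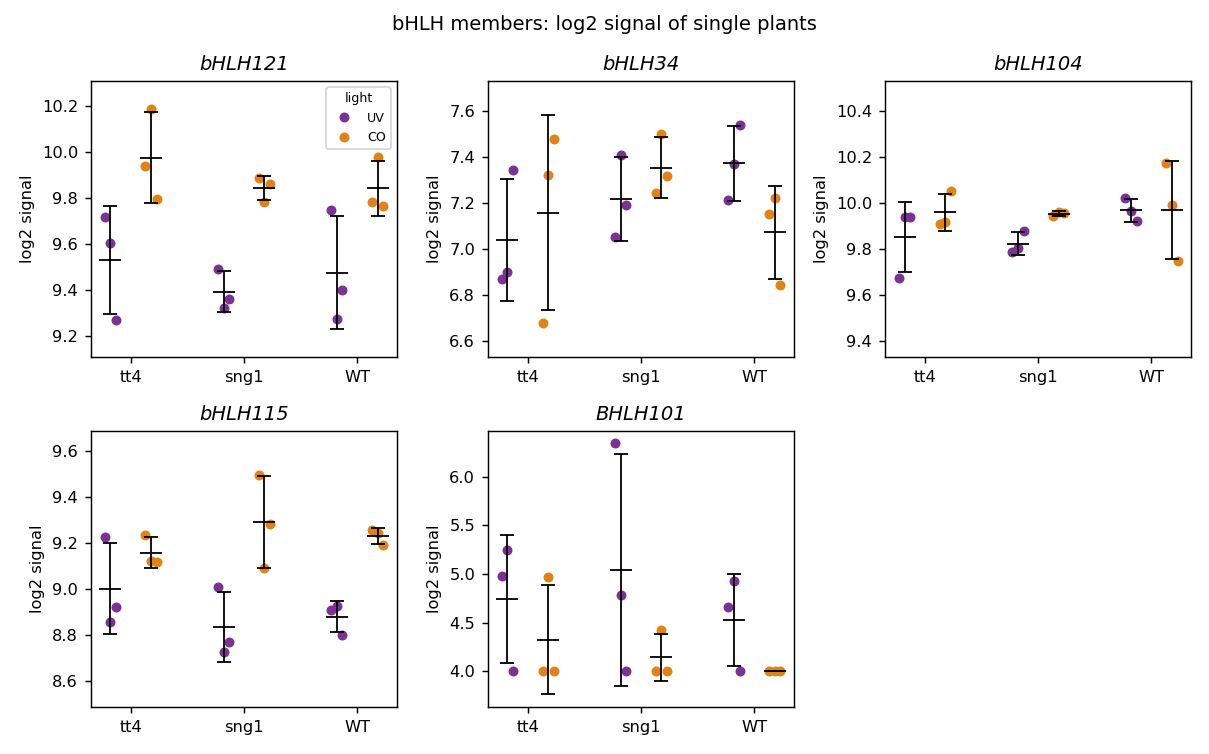
Log2 signals of the 5 bHLH genes on the vertical axes, with 1 point per plant, UV left of CO in each genotype, and bars for the mean and SD of 3 plants. All UV points of bHLH121 lie below all its CO points, the UV and CO points of bHLH34 and bHLH104 overlap in tt4 and in WT, and many BHLH101 points are at the floor of 4.

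The 6 calls within genotypes differed in how far they depended on single plants. WRKY22 in tt4 and bHLH115 in sng1 were called in all 6 fits that left out 1 array. TCP15 in sng1 was called in 2 of 6, bHLH121 in tt4 in 3 of 6 and in sng1 in 1 of 6, and bHLH115 in WT in 0 of 6. The changes themselves stayed below 0 in all these fits.

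**Figure D4:**
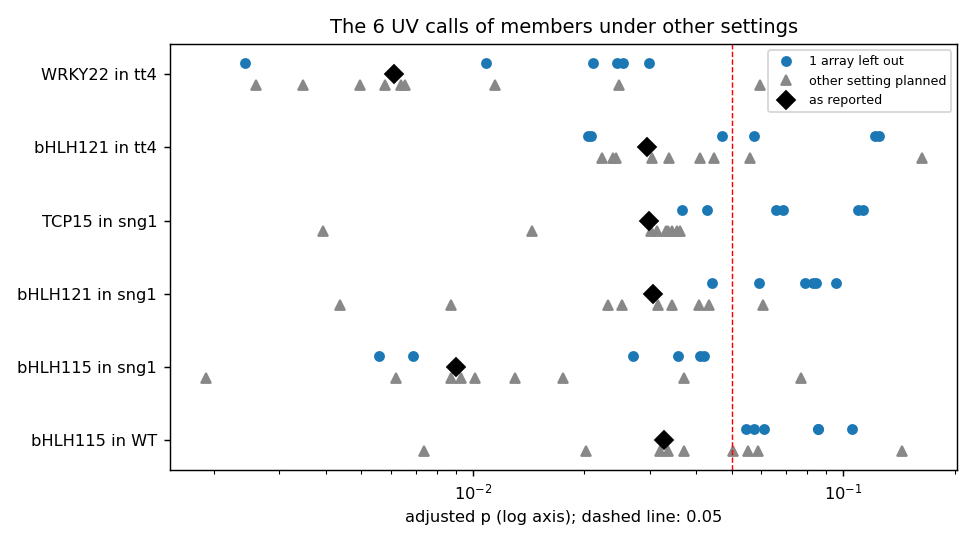
Adjusted p, on a log axis, of the 6 called pairs of gene and genotype as reported (diamonds), with 1 array left out (circles) and under the other planned settings (triangles); the dashed line is 0.05. All circles of WRKY22 in tt4 and bHLH115 in sng1 lie left of the line, and all circles of bHLH115 in WT lie right of it.

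No gene of the set was called between a mutant and WT in the same light, or in the difference of UV effects between a mutant and WT, and none had an unadjusted p under 0.05 in these 6 comparisons in limma. Such a p was found for 688 to 1159 of the 22746 tested probe sets per comparison. Over all tested probe sets 0.0132% were called for tt4 against WT under UV, 0.022% for tt4 against WT in CO, 0.022% for sng1 against WT under UV and 0.00879% for sng1 against WT in CO. For the differences of UV effects 0.0044% were called for tt4 and 0% for sng1. The smallest adjusted p of the set in these comparisons was 0.982.

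Under UV, 2 of the 11 genes had all tt4 plants below all WT plants, against 3.63% of all tested probe sets. They were WRKY22 and TCP15, and the log2 difference of TCP15 was -0.36 ± 0.33. Of the 11 genes, bHLH104 had all sng1 plants below all WT plants under UV (-0.15 ± 0.09), against 4.58% of all tested probe sets, and bHLH34 had all sng1 plants above all WT plants in CO (0.28 ± 0.20), against 4.55%. These shares are for the comparisons and directions in which a gene of the set separated, picked after seeing them. No gene separated in the opposite directions, or for tt4 against WT in CO. The counts are therefore not read as an excess. For TCP15 the 95% interval of the tt4 difference under UV ran from -1.07 to 0.35. For bHLH104, the gene with the narrowest intervals, the sng1 difference under UV lay between -0.35 and 0.06.

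The bHLH genes that the annotation names by other symbols were set beside these 5. Of 36 such symbols listed, 10 were measured, and none was called higher in any genotype. In tt4 3 of the 10 were called lower, in sng1 4 and in WT 5, against 14.1%, 11.6% and 11.9% of all tested probe sets, and their median log2 change was -0.49 in tt4, -0.36 in sng1 and -0.48 in WT. This list was chosen with earlier results of these data known, so its counts are not independent support. BIM1, a partner of brassinosteroid-responsive factors, fell, with log2 changes of -0.998 in tt4, -0.93 in sng1 and -0.95 in WT (adjusted p = 0.00151, 0.00282 and 0.00239). ALC, a factor of fruit opening, fell in sng1 and in WT, with log2 changes of -1.12 and -1.41 (adjusted p = 0.00262 and 0.000618), and its change in tt4 was -0.59 (adjusted p = 0.0642). ALC was dim, with signals of 17.11 to 39.04 under UV, against 39.0 to 73.07 in CO. With a floor of 64 its sng1 call was lost (-0.05, adjusted p = 0.587) and WT gave no value, and the filter on dim probe sets left it out. Its relative SPT, which acts in carpels and leaf size, fell in all 3 genotypes, by a log2 change of -0.50 in tt4, -0.49 in sng1 and -0.49 in WT (adjusted p = 0.0229, 0.0297 and 0.027). These SPT calls were lost in 4 of the 6 fits that left out 1 array in each genotype (adjusted p up to 0.0953 in tt4, 0.122 in sng1 and 0.101 in WT).

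The stomatal lineage genes of this list were also those measured from the marker list for guard cells, of which SPCH and MUTE act earlier in the lineage. FMA, which acts last of these in the lineage, fell in all 3 genotypes as well, with log2 changes of -0.65 in tt4, -0.66 in sng1 and -0.62 in WT (adjusted p = 0.00323, 0.00349 and 0.00519). SPCH, which starts the lineage, fell by 1.04 in WT (adjusted p = 0.00923), and its change was -0.48 in tt4 (adjusted p = 0.198) and 0.05 in sng1 (adjusted p = 1). MUTE, which acts between them, was not called, with changes of -0.13 in tt4, -0.03 in sng1 and -0.35 in WT. In a fit of the WT arrays alone, ALC was the 1 gene of the 10 that was called lower in WT.

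Iron homeostasis genes were listed beside the bHLH genes after those genes were known, and 8 genes of 50 were measured by 9 probe sets. In tt4 1 probe set was called higher and 0 lower, in sng1 2 and 0, and in WT 2 and 1. The shares of all tested probe sets called higher were 12.7%, 11.9% and 12.5%, so these counts of 9 are near the background. The subgroup IVc gene ILR3, a relative of bHLH115, had signals of 1463 to 1669 under UV, against 1609 to 1792 in CO. It fell by 0.15 in WT (adjusted p = 0.0394), and its change was -0.11 in tt4 (adjusted p = 0.12) and -0.14 in sng1 (adjusted p = 0.0673). With arrays centred on their medians the WT change of ILR3 was -0.04 (adjusted p = 0.4), while the tt4 change of -0.10 was called (adjusted p = 0.0285). The WT call was also lost with the replicate block (adjusted p = 0.0575), and array weights gave a call in sng1 (-0.14, adjusted p = 0.0134). PYE, an iron deficiency bHLH factor of both lists, was not called, with changes of -0.48 in tt4, 0.00 in sng1 and -0.26 in WT (adjusted p = 0.0741, 1 and 0.37).

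Genes that rose in the iron list were few. AT3G13610, a hydroxylase of coumarin synthesis that takes part in iron uptake, had signals of 386.6 to 1342 under UV, against 16.0 to 229.9 in CO. It rose by 5.36 in tt4, by 3.56 in sng1 and by 3.32 in WT (adjusted p = 0.00039, 0.006 and 0.00885). Its lowest CO signals were at the floor of 16, and over the settings run, other floors and single arrays left out among them, the change lay between 3.68 and 6.14 in tt4, between 3.18 and 4.03 in sng1 and between 2.31 and 4.23 in WT. BGLU42, a beta-glucosidase in the release of such coumarins, rose by 0.31 in sng1 (adjusted p = 0.0354), and its changes were 0.20 in tt4 (adjusted p = 0.158) and 0.12 in WT (adjusted p = 0.432). AT1G18910 rose by 0.93 in WT (adjusted p = 0.00712), and its values of 0.44 in tt4 (adjusted p = 0.158) and 0.43 in sng1 (adjusted p = 0.179) were not called. In fits of 1 genotype's arrays alone, the WT calls of AT3G13610 (adjusted p = 0.137) and AT1G18910 (adjusted p = 0.0668) were lost, and the sng1 call of BGLU42 was lost in 5 of the 6 fits that left out 1 array and with the replicate block (adjusted p = 0.057).

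**Figure D5:**
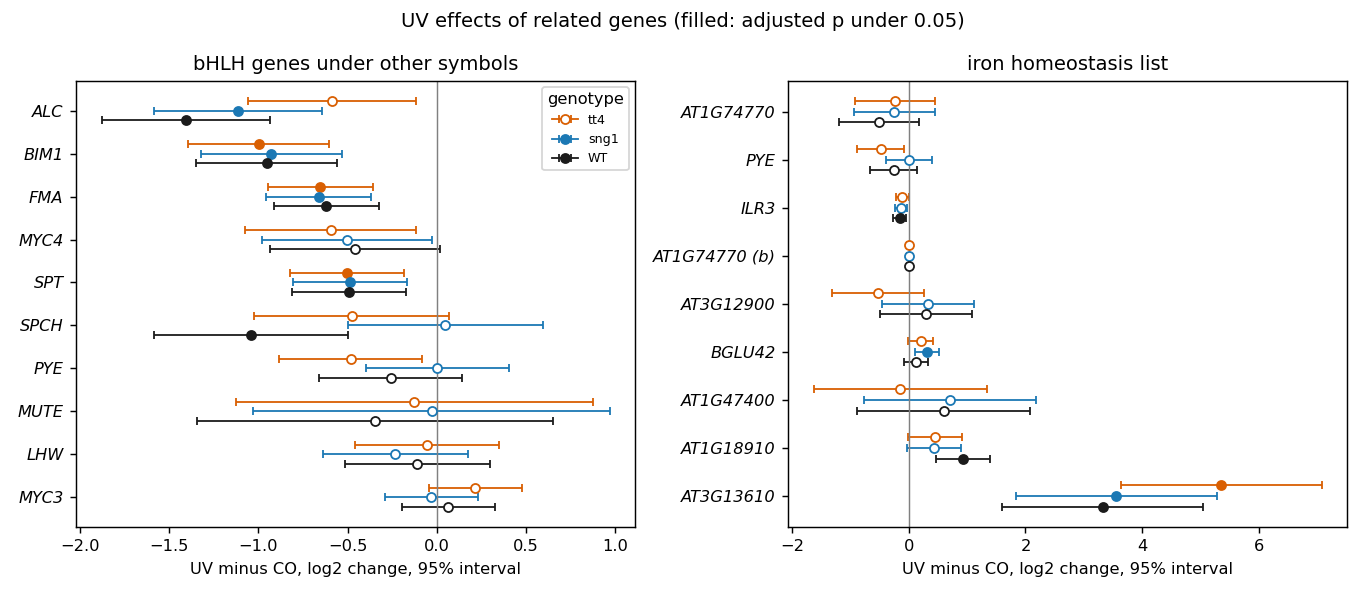
UV effects, as the log2 change of UV minus CO with limma's 95% interval on the horizontal axes, of the 10 bHLH genes with other symbols (left) and of the 9 probe sets of the iron list (right); filled points were called, and AT1G74770 has 2 probe sets. Filled points on the left all lie below 0, and AT3G13610 lies farthest above 0 on the right.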

How the data were processed

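The deposited values were intensities, 1 linear signal per probe set and array, scaled by the authors to a common trimmed mean of 500, as read from the values; labelled cRNA was made from 10 µg of total RNA, per the labels' protocols. The software that made them: not given in the sources used here. The signals of 22810 probe sets were quantile normalized in limma 3.58.1 (R 4.3.3), 64 control probe sets were removed, values under 16 were set to 16, and log2 was taken; 17.5% to 17.6% of probe sets per array were then at this floor. A linear model with 6 groups was fitted to all 18 arrays (12 residual degrees of freedom, eBayes defaults), with Benjamini-Hochberg adjustment over 22746 probe sets. Array medians of the deposited signals were 163 to 185, no arrays were identical, and the number of arrays limits the precision. P-values measure the spread between single plants.

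By the running code in the sample titles, every UV array comes ahead of every CO array. The labels do not say that the replicate number marks a shared day or batch, and the main fit did not pair plants by it. Deviations from the group means had a mean correlation of -0.013 between same-numbered plants of different groups, against 0.006 between differently numbered ones. Of 21 same-numbered pairs in the groups compared, 6 exceeded 0.1, in a range of -0.24 to 0.39. The plan let values be given by array for genes called in at least 1 genotype and by range for the others. The genes and lists were chosen with earlier results of these data known. Scripts were tested on simulated data. Alternatives changed the normalization, floor, filter, weights, eBayes options, block and arrays used. Lists for families without a gene in the set were not used.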

Additional observations from a re-analysis of the deposited data

How the results depend on the processing

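The count of genes of the set called under UV was small and moved with the setting. In tt4 (2 as reported) it was 4 with dim probe sets left out, 1 with array weights, 0 with only the groups compared, 0 without tt4_UV 3 and tt4_CO 2 (chosen after seeing the data), and 1 to 4 with 1 array left out. In sng1 (3) it was 1 to 3 with 1 array left out. In WT (1) it was 0 with arrays centred on their medians, 0 with a floor of 1, 2 with dim probe sets left out, 0 with array weights, and 0 to 1 with 1 array left out. The mean effect (6) gave 6 to 7. The bHLH genes with other symbols called lower were 5 in tt4 (3) with dim probe sets left out, 2 to 4 there with 1 array left out, and 1 in WT (5) with only the groups compared. With the replicate block the counts were 2 in tt4, 3 in sng1 and 1 in WT, which changed no call of the set but ended those of ILR3 in WT and BGLU42 in sng1. The counts for mutant against WT and for differences of UV effects stayed at 0 in each alternative run. Centring added WRKY20 as higher in tt4 and sng1 and lost bHLH121 in sng1. WRKY20 was also called higher in tt4 with values as deposited (adjusted p = 0.0371) and in sng1 with array weights (adjusted p = 0.0144). The split of higher and lower calls thus depends on the scaling and on the weights.

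Values near 0 changed sign. For bHLH104 in WT they were 0.107 (centred), 0.0387 (as deposited) and -0.114 to 0.0987 with 1 array left out. For NAC014 in sng1 they were 0.0415 (centred), 0.0184 (array weights) and -0.12 to 0.0983 with 1 array left out. The mean effect of bHLH34 was -0.0447 (as deposited), -0.006 (array weights) and -0.0657 to 0.0676 with 1 array left out, and bHLH34 in tt4 ran from -0.361 to 0.0388. WRKY47 in sng1 ran from -0.23 to 0.0078. SPCH in sng1 was -0.0728 and PYE in sng1 -0.0576 as deposited, and with 1 array left out they ran from -0.028 to 0.187 and from -0.188 to 0.101. MUTE in tt4 was 0.082 with array weights and in sng1 0.264 with a floor of 1, and with 1 array left out it ran from -0.439 to 0.286 in tt4 and from -0.392 to 0.199 in sng1. Of 1359 alternative values of single genes 1221 kept direction and side of the threshold, 28 gained and 73 lost a call, and 37 changed sign. No cause was tested. The alternative of the dimmer probe set gave no value, since no gene of the set has a second one, and BHLH101 in WT had none with a floor of 64. Signals near the floor limit BHLH101 and WRKY42.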
